A study of Mus musculus with 6 samples.

Results

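The CHD chromatin remodellers comprised 9 genes, *Chd1* to *Chd9*, found by gene symbol among the 55357 genes of the count data, and all 9 passed the filter that kept 21876 genes for testing. They were measured by RNA-seq of poly(A) RNA in 6 libraries of primary neuronal cultures, prepared from the cortex and hippocampus of wild type C57BL/6N mouse embryos. In the shCtrl group (n = 3), the cultures received a lentivirus expressing a scrambled shRNA. In the sh*Pla2g4e* group (n = 3), they received a lentivirus expressing the sh2 hairpin against *Pla2g4e*, which encodes a cytosolic phospholipase A2 with N-acyltransferase activity. Cultures of both groups were transduced at DIV4 and collected at DIV14, and their age in days in vitro was thus the same. The lentivirus was used at the lowest amount that gave the intended silencing of the transcript, so the group models a partial knockdown in a culture of several cell types. A single hairpin was used.

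CHD proteins carry a pair of chromodomains, which read methylated histone tails, and an ATPase of the SNF2 type, which slides, spaces or exchanges nucleosomes. Subfamily I (CHD1 and CHD2) is associated with transcription elongation, and *CHD2* is mutated in an epileptic encephalopathy. Subfamily II (CHD3, CHD4 and CHD5) provides the alternative ATPase subunits of the NuRD complex, which joins nucleosome remodelling to histone deacetylation, and CHD5 is known for its expression in the nervous system. Subfamily III (CHD6 to CHD9) shares BRK domains, and its members include the CHARGE syndrome gene *CHD7* and the autism gene *CHD8*.

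Of the members, 5 carried in their own transcript the heptamer that pairs with bases 2 to 8 of the sh2 guide, and these sites are shown because the hairpin distinguishes the groups compared. The guide was taken as the complement of the whole 19-base target that the study lists, and how the hairpin is processed in the cell was not measured. The seed is in capitals in the guide, and the matching heptamer GTGGCCA is in capitals in the target and in the 25-base windows of the longest coding transcripts (GENCODE vM21, GRCm38, positions counted from the transcript's first base).
sh2 target: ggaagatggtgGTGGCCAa
sh2 guide: tTGGCCACcaccatcttcc
*Chd2*, coding sequence, 4563 to 4569: aagggcaccGTGGCCAgcggagagg
*Chd2*, 3′ UTR, 6127 to 6133: gatgcagctGTGGCCAgcggtcagg
*Chd5*, coding sequence, 3788 to 3794: atcactcagGTGGCCAagcgtaaga
*Chd6*, coding sequence, 7772 to 7778: acaagctgaGTGGCCAtgatgtaaa
*Chd7*, coding sequence, 4135 to 4141: tgaaggctgGTGGCCAcagggtgct
*Chd7*, coding sequence, 6276 to 6282: agctgctttGTGGCCAtgtgcagac
*Chd8*, coding sequence, 3768 to 3774: ttaaagctgGTGGCCAtaaagttct
*Chd8*, coding sequence, 5876 to 5882: catggttttGTGGCCAtgtgtcgac

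The *Chd5* site was the only one of these 8 followed by an A, and its pairing with the guide ran over 8 bases from base 2. The first sites of *Chd7* and *Chd8* paired over 9 bases from base 2, and the other sites over the 7 bases of the seed alone. No site was found in the longest coding transcripts of *Chd1*, *Chd3*, *Chd4* and *Chd9*. Over all tested genes, the heptamer occurred in 25.6% of 15849 coding sequences and in 11.9% of 15493 3′ UTRs. Among genes called lower in sh*Pla2g4e* cultures, it occurred in 39.3% of 857 coding sequences and in 38.1% of 843 3′ UTRs, and among genes called higher in 23.4% of 479 and in 6.14% of 472. None of these shares was matched for length, and a longer sequence has more room for a heptamer. The coding sequences of the members ran from 5136 (*Chd1*) to 8961 bases (*Chd7*). The part of the seed sites in the results below was not tested.

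Between 17054717 and 23570180 reads were counted per library, of which 2.75% to 3.79% fell on mitochondrial genes and 3.86% to 4.90% on the 10 most abundant genes. Levels are given as CPM, the reads of a gene relative to the size of its library, corrected by the trimmed mean of M values (TMM). The targeted gene *Pla2g4e* had 38.0, 35.1 and 35.4 CPM in shCtrl replicates 1 to 3 and 21.8, 14.2 and 18.7 CPM in sh*Pla2g4e* replicates 1 to 3. Its log2 fold change was −0.99 ± 0.131 (SE, adjusted p = 1.24e-04 by edgeR's quasi-likelihood test), in the direction of the labels.

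Of the 9 *Chd* genes, 1 was down-regulated and 0 were up-regulated at an adjusted p of 0.01. *Chd5* was the gene called, and it fell to 73.3% of its shCtrl level. At this threshold the test called 6.49% of all genes, 4.0% as lower and 2.48% as higher. Both limma after voom and DESeq2 also called 1 member lower and 0 higher. Over all genes, limma called 1428 and DESeq2 1901 in either direction. At an unadjusted p of 0.05 in edgeR, 3 members were lower and 0 higher, where 12.9% of all genes were lower and 12.8% higher. The log2 fold changes of the 9 genes ranged from −0.45 to 0.11 with a median of 0.03, the same as the median of 0.03 over all genes tested. In all, 4 members had a negative and 5 a positive log2 fold change. *Chd5*, *Chd6* and *Chd8* had groups with no overlap between libraries, each lower in sh*Pla2g4e* cultures, where 14.6% of all genes were separated in that direction. No member was separated in the other direction, where 15.5% of all genes were. All 9 members were among the 10908 genes whose log2 CPM averaged 3 or more, and these genes are the closer background. Of them, 7.61% were called lower, 22.4% were lower at an unadjusted p of 0.05, 23.8% were separated as lower and 16.2% as higher, and their median log2 fold change was −0.02.

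**Figure D1:**
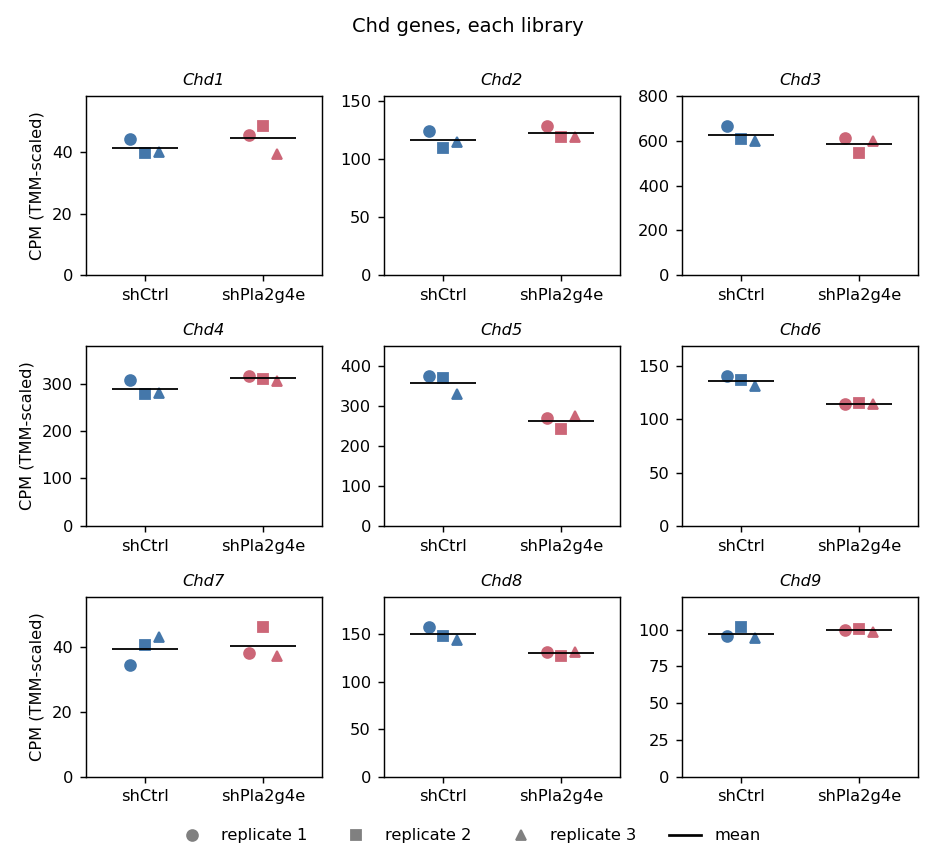
CPM (TMM-scaled, linear axes from 0) of each *Chd* gene in the 3 shCtrl and 3 sh*Pla2g4e* libraries, with symbols for the replicate number and a line for the mean of each group. The sh*Pla2g4e* libraries of *Chd5* lie between 242.6 and 275.1 CPM, all below the lowest shCtrl library at 330.6 CPM, and *Chd6* and *Chd8* are separated in the same way.

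Subfamily II is described first, since it held the gene called. *Chd5* (ENSMUSG00000005045, chromosome 4, 152423108 to 152474651 GRCm39, plus strand) encodes the NuRD ATPase best known from neurons. It had 374.4, 369.8 and 330.6 CPM in shCtrl replicates 1 to 3 and 269.7, 242.6 and 275.1 CPM in sh*Pla2g4e* replicates 1 to 3. Every sh*Pla2g4e* library thus lay below every shCtrl library. The means were 358.2 ± 24.1 CPM (SD, n = 3) and 262.5 ± 17.4 CPM (SD, n = 3). The log2 fold change was −0.45 ± 0.0833 (SE, adjusted p = 0.00186 by edgeR's quasi-likelihood test), lower in 3 of 3 libraries, and the libraries of number 1, 2 and 3 differed by −0.47, −0.61 and −0.27 on the log2 scale.

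The call of *Chd5* rested on particular libraries. Without shCtrl replicate 2 the adjusted p rose to 0.0214, and without sh*Pla2g4e* replicate 2 to 0.0116, both from edgeR, while the log2 fold change lay within −0.50 and −0.40 over the 6 fits that each omitted a library. In bulk cultures, fewer cells of a type and less RNA per cell cannot be told apart. The summed level of 10 neuron markers was 4799 to 5148 CPM in shCtrl and 4257 to 4620 CPM in sh*Pla2g4e* libraries, so this sum was also lower in every sh*Pla2g4e* library. The sum weighs abundant genes most, and the markers did not move together, with 6 lower and 4 higher. *Map2*, the most abundant, went from a mean of 1638 to 1196 CPM and *Tubb3* from 303.7 to 94.9 CPM, while *Snap25* went from 965.5 to 1156 CPM. None of the 10 was at 0, and 3 were called lower and 2 higher, or 4 and 3 with the replicate block, and the median log2 fold change was −0.11. The markers called with the block alone were *Elavl3*, at −0.30 (adjusted p = 0.0432 by edgeR, and 8.20e-05 with the block), and *Snap25*, at 0.26 (adjusted p = 0.0471 by edgeR, and 3.53e-04 with the block). The part of these markers in the level of *Chd5* was not tested.

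*Chd4* (chromosome 6, 125072944 to 125107554, plus strand) encodes the NuRD ATPase found in most tissues and also works with ADNP and HP1 proteins in the ChAHP complex. It had 306.9, 277.3 and 280.2 CPM in shCtrl replicates 1 to 3 and 315.5, 310.3 and 306.2 CPM in sh*Pla2g4e* replicates 1 to 3, and the groups overlapped only through shCtrl replicate 1. The means of 288.1 ± 16.4 and 310.7 ± 4.67 CPM (SD, n = 3 each) gave a log2 fold change of 0.11 ± 0.0767 (SE, adjusted p = 0.420 by edgeR's quasi-likelihood test). *Chd3* (chromosome 11, 69234099 to 69260232, minus strand) encodes the remaining NuRD ATPase and was the most abundant member. It had 668.0, 608.2 and 596.9 CPM in shCtrl replicates 1 to 3 and 614.3, 546.1 and 598.3 CPM in sh*Pla2g4e* replicates 1 to 3, with overlapping groups. Its log2 fold change was −0.09 ± 0.0818 (SE, adjusted p = 0.548 by edgeR's quasi-likelihood test).

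**Figure D2:**
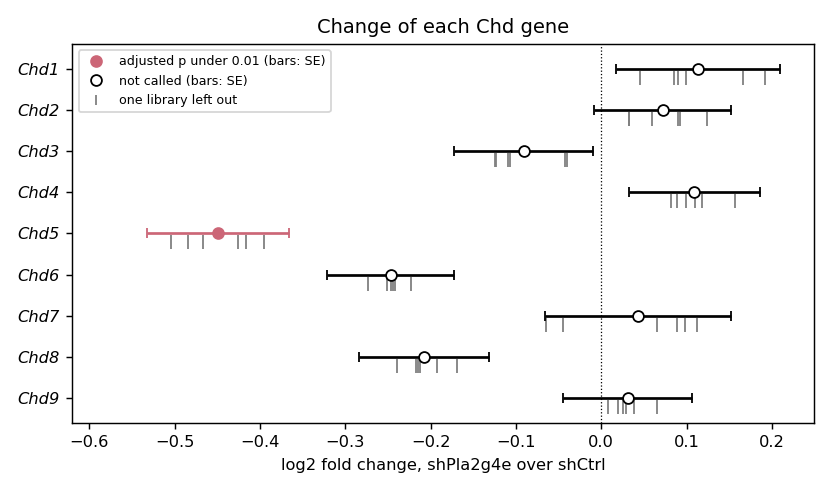
Log2 fold change of each *Chd* gene (sh*Pla2g4e* over shCtrl, points) with its standard error (bars), and the values of the fits that each omitted a library (grey ticks). *Chd5* at −0.45 is filled as the member past the threshold, and the grey ticks of *Chd7* lie on both sides of 0.

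Set against each other per length, the members of subfamily II shifted in their proportions. Per kb of exon, *Chd5* over *Chd4* was 1.02, 1.12 and 0.987 in shCtrl replicates 1 to 3 and 0.715, 0.654 and 0.752 in sh*Pla2g4e* replicates 1 to 3, with no overlap. *Chd5* made up 25.4% ± 1.04 of the summed level of the subfamily in shCtrl and 20.2% ± 0.596 in sh*Pla2g4e* cultures (SD, n = 3 each). *Chd4* made up 24.4% ± 0.562 and 28.6% ± 1.27, and *Chd3* 50.2% ± 0.523 and 51.2% ± 0.838. The shares of the 3 genes add up to the whole and are not independent of each other. The summed level was 140.1 to 156.5 CPM per kb in shCtrl and 128.7 to 140.2 CPM per kb in sh*Pla2g4e* libraries. These proportions are a description of the 6 libraries, with no test.

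Subfamily III held the other 2 genes with separated groups. *Chd6* (chromosome 2, 160788898 to 160950995, minus strand) encodes a remodeller linked to the response to oxidative stress. It had 140.3, 136.3 and 130.8 CPM in shCtrl replicates 1 to 3 and 113.9, 115.1 and 114.3 CPM in sh*Pla2g4e* replicates 1 to 3. The sh*Pla2g4e* libraries lay close to each other and below all shCtrl libraries. The log2 fold change was −0.25 ± 0.0746 (SE), or 84.3% of the shCtrl level, and the adjusted p of 0.0391 by edgeR's quasi-likelihood test did not pass the threshold of 0.01. In edgeR with a replicate block, the adjusted p was 0.00323, which passed, in a fit that called 15.5% of all genes in either direction and 9.02% as lower. With this block, 2 of the 9 members were called lower and 0 higher.

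*Chd8* (chromosome 14, 52435608 to 52495237, minus strand) encodes a remodeller that binds β-catenin and is among the genes most often mutated in autism. It had 157.9, 148.6 and 143.5 CPM in shCtrl replicates 1 to 3 and 131.0, 127.1 and 131.4 CPM in sh*Pla2g4e* replicates 1 to 3, again without overlap. The log2 fold change was −0.21 ± 0.0760 (SE), or 86.6% of the shCtrl level, with an adjusted p of 0.0890 by edgeR's quasi-likelihood test. The antisense gene Gm26590 on the other strand overlaps 5.77% of its exon bases, and strand was not used in the counting.

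*Chd7* (chromosome 4, 8690406 to 8867659, plus strand), the CHARGE syndrome gene, was the least abundant member. It had 34.2, 40.4 and 42.8 CPM in shCtrl replicates 1 to 3 and 37.9, 46.1 and 37.0 CPM in sh*Pla2g4e* replicates 1 to 3. The groups overlapped, and the log2 fold change of 0.04 ± 0.109 (SE, adjusted p = 0.864 by edgeR's quasi-likelihood test) turned to −0.04 once shCtrl replicate 1 was omitted and to −0.06 once sh*Pla2g4e* replicate 2 was. *Chd9* (chromosome 8, 91554980 to 91781144, plus strand), first known from bone-forming cells, had 95.8, 101.9 and 94.2 CPM in shCtrl replicates 1 to 3 and 99.8, 100.1 and 98.3 CPM in sh*Pla2g4e* replicates 1 to 3. Its groups overlapped, with a log2 fold change of 0.03 ± 0.0757 (SE, adjusted p = 0.856 by edgeR's quasi-likelihood test).

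Subfamily I did not pass the test. *Chd1* (chromosome 17, 15925229 to 15992872, plus strand) encodes the remodeller that reads trimethylated lysine 4 of histone H3 and travels with elongating RNA polymerase. It had 44.2, 39.7 and 39.96 CPM in shCtrl replicates 1 to 3 and 45.6, 48.7 and 39.5 CPM in sh*Pla2g4e* replicates 1 to 3. The groups overlapped, with a log2 fold change of 0.11 ± 0.0963 (SE, adjusted p = 0.520 by edgeR's quasi-likelihood test). *Chd2* (chromosome 7, 73076386 to 73191578, minus strand) encodes the closest relative of CHD1. It had 124.1, 109.6 and 114.1 CPM in shCtrl replicates 1 to 3 and 128.6, 118.4 and 118.6 CPM in sh*Pla2g4e* replicates 1 to 3, with overlapping groups and a log2 fold change of 0.07 ± 0.0804 (SE, adjusted p = 0.643 by edgeR's quasi-likelihood test). Of its exon bases, 14.2% are shared with the non-coding gene 1810026B05Rik on the same strand, and reads there were left out by the counting, so that its level is a lower estimate.

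Set beside the seed sites, the log2 fold changes were −0.45 for *Chd5* and −0.25 for *Chd6*, with 1 site each, and −0.21 for *Chd8*, 0.07 for *Chd2* and 0.04 for *Chd7*, with 2 sites each. Of these 5 members, 3 (*Chd5*, *Chd6* and *Chd8*) were lower in every sh*Pla2g4e* library, as 14.6% of all genes and 23.8% of those with a log2 CPM averaging 3 or more were. The 3′ UTR site of *Chd2* was the only one outside a coding sequence. The 4 members without a site had log2 fold changes from −0.09 to 0.11. The shares given are over genes with and without a site, and the part of the sites in these values was not tested.

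The members differed in level by far more than the groups did. In shCtrl cultures, the mean level per kb of exon ran from 73.95 ± 4.52 CPM per kb (SD, n = 3) for *Chd3* through 37.4 ± 2.51 for *Chd5*, 35.9 ± 2.04 for *Chd4*, 9.08 ± 0.442 for *Chd8*, 8.11 ± 0.521 for *Chd2*, 7.11 ± 0.248 for *Chd6*, 4.73 ± 0.294 for *Chd1* and 4.20 ± 0.176 for *Chd9* to 2.84 ± 0.320 for *Chd7*. *Chd5* and *Chd4* had overlapping ranges, with *Chd5* above *Chd4* in 2 of 3 libraries, and each other pair of neighbours kept its order in 3 of 3 libraries. The 3 genes of subfamily II were thus the most abundant, at percentiles 94.3 (*Chd4*) to 97.9 (*Chd3*) of all genes tested, while *Chd7* stood at percentile 53.4.

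In sh*Pla2g4e* cultures, *Chd3* remained first at 69.4 ± 4.23 CPM per kb (SD, n = 3), followed by *Chd4* at 38.75 ± 0.582 and *Chd5* at 27.4 ± 1.81, whose libraries no longer overlapped. *Chd2* at 8.52 ± 0.408 and *Chd8* at 7.86 ± 0.143 had also changed places, and the other members stood in the same order. The places depend on the length used. Divided by the length of the longest coding transcript (a choice made after the data were seen), *Chd4* lay above *Chd5* also in shCtrl cultures, at 44.1 ± 2.50 against 37.8 ± 2.54 CPM per kb, and *Chd8* lay above *Chd2* in both groups. *Chd9*, with 23148 bases of annotated exon but 11565 in that transcript, then stood above *Chd1*. By this length *Chd6* also stood above *Chd2* in shCtrl cultures, at 12.9 ± 0.451 against 12.8 ± 0.819 CPM per kb, with overlapping ranges.

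**Figure D3:**
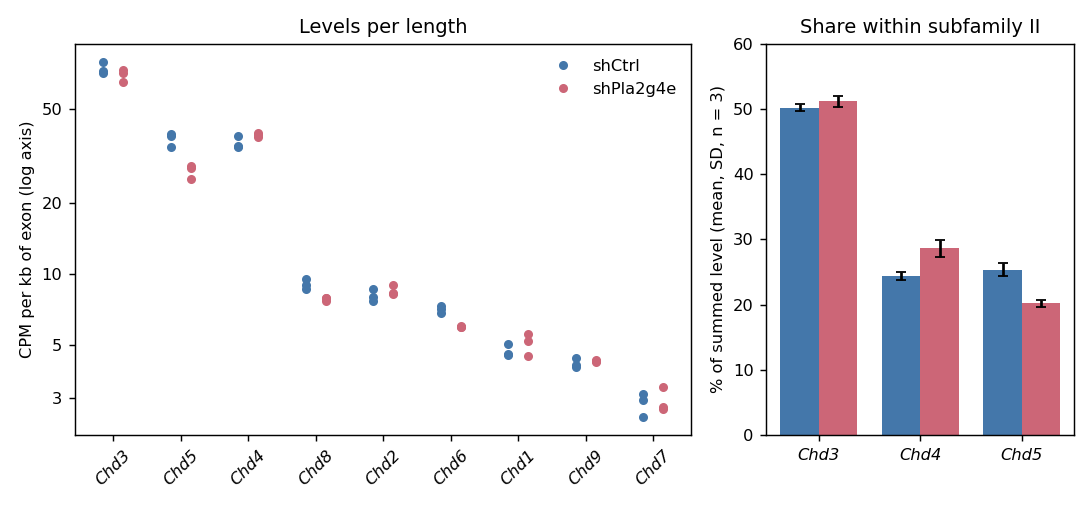
Left, level of each *Chd* gene in each library in CPM per kb of exon on a log axis, ordered by the shCtrl mean, with shCtrl in blue and sh*Pla2g4e* in red. Right, mean share of *Chd3*, *Chd4* and *Chd5* in their summed level (bars from 0, error bars SD, n = 3), where *Chd5* goes from 25.4% to 20.2% and *Chd4* from 24.4% to 28.6%.

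The promoters of *Chd5*, *Chd6* and *Chd8* are shown because these were the members with separated groups, of which *Chd5* alone passed the test. Of the 9 genes, 5 had an entry among the RefSeq promoters (GRCm38.p6, 250 bases before to 50 after a start). The hexamer GGGCGG, the core of the GC box, was searched on both strands and is in capitals, as its complement CCGCCC where it lies on the other strand.
*Chd5*, chr4:152338401-152338700, plus strand: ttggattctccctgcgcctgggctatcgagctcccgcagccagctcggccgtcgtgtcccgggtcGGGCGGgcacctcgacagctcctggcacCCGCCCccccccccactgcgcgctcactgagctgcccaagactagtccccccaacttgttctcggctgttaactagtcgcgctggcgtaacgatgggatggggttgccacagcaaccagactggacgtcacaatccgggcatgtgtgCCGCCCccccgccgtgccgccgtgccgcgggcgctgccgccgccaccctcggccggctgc
*Chd6*, chr2:161109037-161109336, minus strand: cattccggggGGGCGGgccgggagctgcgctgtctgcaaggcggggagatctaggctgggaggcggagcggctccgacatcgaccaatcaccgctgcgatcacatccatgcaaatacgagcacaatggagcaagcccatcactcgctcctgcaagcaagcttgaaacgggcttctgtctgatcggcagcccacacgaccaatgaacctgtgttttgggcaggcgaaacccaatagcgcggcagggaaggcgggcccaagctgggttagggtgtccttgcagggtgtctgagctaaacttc
*Chd8*, chr14:52257711-52258010, minus strand: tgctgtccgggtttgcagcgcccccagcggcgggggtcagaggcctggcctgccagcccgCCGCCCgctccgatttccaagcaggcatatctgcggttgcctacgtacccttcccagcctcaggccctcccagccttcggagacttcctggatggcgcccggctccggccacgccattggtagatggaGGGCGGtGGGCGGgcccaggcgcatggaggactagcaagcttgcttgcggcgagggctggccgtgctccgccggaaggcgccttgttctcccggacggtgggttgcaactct

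*Chd5* had 2 windows whose starts lie 3 bases apart, and the first is shown. The hexamer occurred 3 times in each *Chd5* window, once in the *Chd6* and 3 times in the *Chd8* window. It also occurred 3 times in each of the 2 windows of *Chd4*, whose groups overlapped, once in 1 of the 2 windows of *Chd9*, and in 35.7% of all 32851 promoter windows. The *Chd5* windows held 32 and 33 CpG dinucleotides with 70.7% and 71.3% G and C, the *Chd6* window 20 and 61.0%, and the *Chd8* window 26 and 69.3%. The windows of members with overlapping groups held 17 and 29 CpG dinucleotides with 57.0% and 68.3% G and C for *Chd4*, and 19 and 1 with 65.7% and 34.7% for *Chd9*. Over all windows the medians were 7 CpG dinucleotides and 52.7% G and C.

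The partners of the CHD proteins were examined by lists written by symbol. Of the 12 NuRD partners tested, which include the deacetylases, the MTA, MBD and GATAD2 proteins and the histone chaperones RBBP4 and RBBP7, 1 was called lower and 0 higher, and the median log2 fold change was 0.01. *Mta3*, a scaffold of the complex, was the gene called. It had 76.75, 56.6 and 60.1 CPM in shCtrl replicates 1 to 3 and 41.1, 44.9 and 49.1 CPM in sh*Pla2g4e* replicates 1 to 3, for a log2 fold change of −0.52 ± 0.111 (SE, adjusted p = 0.00530 by edgeR's quasi-likelihood test). The call was lost without shCtrl replicate 1 (adjusted p = 0.0286), without sh*Pla2g4e* replicate 1 (0.0347) or 2 (0.0155), and under scaling by library size alone (0.0124), all in edgeR. *Cdk2ap1*, which encodes a small NuRD subunit, had a log2 fold change of 0.80 (adjusted p = 0.0139 by edgeR, 1.69e-05 with the replicate block, 1.17e-04 without a filter, 0.00928 in the robust fit and 0.00596 without sh*Pla2g4e* replicate 3, and 0.00429 by DESeq2). Its means were 6.57 ± 1.62 and 11.4 ± 2.48 CPM (SD, n = 3 each), with separated groups. Of the 4 ChAHP partners, edgeR, limma and DESeq2 each called 0 in either direction, and the median was −0.15. At an unadjusted p of 0.05, edgeR gave 1 of them lower, where 12.9% of all genes were. *Cbx3*, an HP1 gene, had a log2 fold change of −0.23 (adjusted p = 0.131 by edgeR), and *Adnp* one of −0.35 (adjusted p = 0.490 by edgeR). The value of *Adnp* is uncertain, since 82.1% of its exon bases are shared with another annotated gene on the same strand.

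Of the 9 elongation partners of CHD1 (subunits of the PAF complex, FACT and SPT factors), 1 was called lower and 0 higher, or 2 lower with the replicate block, and the median log2 fold change was −0.15. *Leo1*, a subunit of the PAF complex, had 39.9, 33.8 and 35.1 CPM in shCtrl replicates 1 to 3 and 23.3, 20.4 and 22.1 CPM in sh*Pla2g4e* replicates 1 to 3. Its log2 fold change was −0.73 ± 0.103 (SE, adjusted p = 2.04e-04 by edgeR's quasi-likelihood test). *Paf1*, which names that complex, had a log2 fold change of −0.31 (adjusted p = 0.0425 by edgeR, 0.00161 with the replicate block and 0.00742 without sh*Pla2g4e* replicate 3). Of the 10 genes of the H3K4 methyltransferase core, which write the mark that CHD1 reads, edgeR and limma called 0 in either direction. DESeq2 and edgeR with the replicate block each called 1 lower. At an unadjusted p of 0.05 in edgeR, 2 were lower and 0 higher, where 12.9% of all genes were lower and 12.8% higher. In all, 8 of the 10 had negative log2 fold changes, and the median of the list was −0.15. *Kmt2a* had a log2 fold change of −0.27 (adjusted p = 0.0316 by edgeR, 4.85e-04 with the replicate block, and 0.00578 by DESeq2), and *Wdr5* one of −0.19 (adjusted p = 0.178 by edgeR).

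Among 18 other ATPases of the SNF2 type, 1 was called lower and 0 higher, or 3 lower and 2 higher with the replicate block, and the median log2 fold change was 0.01. *Smarcal1*, which encodes a DNA-annealing helicase of stalled replication forks, had 54.2, 44.3 and 46.2 CPM in shCtrl replicates 1 to 3 and 21.6, 21.45 and 22.9 CPM in sh*Pla2g4e* replicates 1 to 3. Its log2 fold change was −1.13 ± 0.100 (SE, adjusted p = 3.02e-06 by edgeR's quasi-likelihood test). *Hltf*, another fork remodeller, had a log2 fold change of 0.43 (adjusted p = 0.0115 by edgeR, and 2.13e-04 with the replicate block). It also passed by DESeq2 and in edgeR under 2 other scalings, each other filter, the robust fit and without sh*Pla2g4e* replicate 3, at adjusted p from 0.00195 to 0.00940. Of 24 subunits of the BAF complexes, edgeR and limma called 0 in either direction, and 1 was lower under DESeq2 and with the replicate block in edgeR. Over all genes, DESeq2 called 1901 in either direction, and the fit with the block called 9.02% as lower. At an unadjusted p of 0.05 in edgeR, 2 of the 24 were lower and 0 higher, where 12.9% of all genes were lower and 12.8% higher. The median of the subunits was −0.04. *Arid1b*, mutated in Coffin-Siris syndrome, had a log2 fold change of −0.35 (adjusted p = 0.0105 by edgeR, 5.89e-05 with the replicate block, 0.00162 without a filter, 0.00600 in the robust fit and 0.00307 without shCtrl replicate 3, and 0.00198 by DESeq2). *Smarcd3* had one of −0.29 (adjusted p = 0.0732 by edgeR), and 48.2% of its exon bases overlap genes on the other strand.

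**Figure D4:**
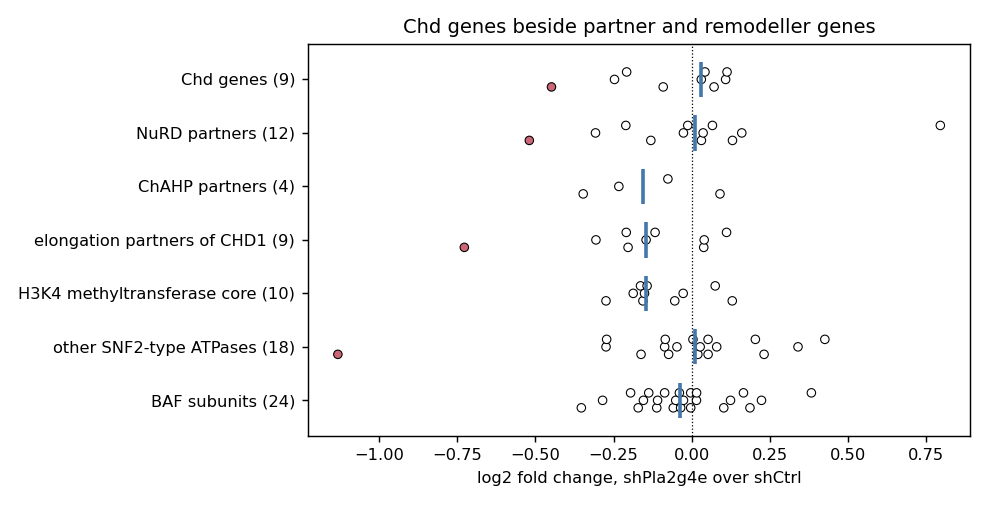
Log2 fold change (sh*Pla2g4e* over shCtrl) of the *Chd* genes and of the genes in each partner or remodeller list, 1 point per gene with the number of genes in brackets, filled where the adjusted p was under 0.01, and a blue line at the median of each list. The medians lie between −0.15 and 0.03, and *Chd5*, *Mta3*, *Leo1* and *Smarcal1* are the filled points.

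Markers of other cells were read beside these values. Of 8 astrocyte markers, 2 were called lower and 0 higher, where 4.0% of all genes were called lower and 2.48% higher. With the replicate block, 6 were called lower and 1 higher, where 1973 of the 21876 genes tested were called lower and 1422 higher. The summed level of the 8 astrocyte markers was 1658 to 2391 CPM in shCtrl and 1210 to 2035 CPM in sh*Pla2g4e* libraries, and the ranges overlapped. By replicate number, the sum was lower in 3 of 3 pairs, from 1658 to 1245, from 1922 to 1210 and from 2391 to 2035 CPM. The sum of the 10 neuron markers was likewise lower in 3 of 3 pairs, though 4 of the 10 had positive log2 fold changes. *Aqp4* and *Gja1*, which encode astrocyte channels, had log2 fold changes of −1.19 and −0.66 (adjusted p = 8.53e-04 and 0.00242 by edgeR). The call of *Aqp4* was lost under DESeq2 (adjusted p = 0.0124) and in edgeR's robust fit (0.122). That of *Gja1* was lost in edgeR's robust fit (adjusted p = 0.0139) and without sh*Pla2g4e* replicate 1 (0.0161) or 2 (0.0121). *S100b*, which encodes a calcium-binding protein of astrocytes, had a log2 fold change of 1.11 (adjusted p = 0.0211 by edgeR, and 9.63e-04 with the replicate block). Among the neuron markers, *Tubb3* had a log2 fold change of −1.68 (adjusted p = 3.68e-08 by edgeR) and *Nefm* one of 0.68 (adjusted p = 7.94e-04 by edgeR). Of 8 proliferation and progenitor markers, 1 was called lower, *Top2a*, at a log2 fold change of −1.0 (adjusted p = 0.00613 by edgeR), beside *Mki67* at −1.13 (adjusted p = 0.0148 by edgeR, 1.51e-08 with the replicate block, 7.63e-09 without a filter, 0.00630 without shCtrl replicate 1, and 3.82e-04 once sh*Pla2g4e* replicate 3 was omitted, and 0.00132 by DESeq2). The adjusted p of *Top2a* in edgeR was 0.0552 without shCtrl replicate 2, 0.0102 without shCtrl replicate 3, 0.0340 without sh*Pla2g4e* replicate 1 and 0.0218 without sh*Pla2g4e* replicate 2. It was 0.0107 to 0.0125 under library size alone, both stricter filters and the robust fit, so each of these also ended the call. The 8 markers summed to 183.2 to 225.6 CPM in shCtrl and 170.4 to 209.0 CPM in sh*Pla2g4e* libraries, lower in 3 of 3 pairs.

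With all 6 libraries, the filter and no block, edgeR called 0 of the 8 oligodendrocyte markers, and their sums were 516.4 to 585.4 and 536.3 to 640.3 CPM, lower in 1 of 3 pairs. Of these, *Olig2*, a transcription factor of the lineage, had a log2 fold change of −0.38 (adjusted p = 0.0964 by edgeR, 5.28e-04 with the replicate block and 0.00291 without a filter). The 6 microglia markers tested (of 8) summed to 4.58 to 9.50 and 3.05 to 5.37 CPM, lower in 3 of 3 pairs, with *C1qa* at means of 1.89 and 0.880 CPM and *P2ry12* at 0.315 and 0.0308 CPM. The 7 vascular and fibroblast markers tested (of 8) summed to 40.5 to 43.1 and 40.6 to 51.3 CPM, lower in 1 of 3 pairs, with *Col1a1* at means of 1.99 and 4.51 CPM (adjusted p = 0.0682 by edgeR, 4.56e-04 with the replicate block, 3.43e-04 without a filter and 0.00853 without sh*Pla2g4e* replicate 1) and *Pdgfrb* at 16.7 and 13.5 CPM. The endothelial gene *Cldn5* was at 0 in every library, and edgeR with all 6 libraries, the filter and no block called 0 genes of either list. At an unadjusted p of 0.05 in edgeR, 1 oligodendrocyte marker was lower, 2 microglia markers were lower and 1 higher, and 1 vascular or fibroblast marker was higher. At that level 12.9% of all genes were lower and 12.8% higher. Under limma and DESeq2, 0 genes of these 3 lists were called.

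The genes most like *Chd5* and *Chd6* over the 6 libraries were sought among 10908 genes whose log2 CPM averaged 3 or more, by Pearson's r of the log2 CPM. For *Chd5* they were *Scrn1* (secernin, r = 0.998), *Pde4a* (a cAMP phosphodiesterase, r = 0.998) and *Mgrn1* (a ubiquitin ligase, r = 0.997), which had log2 fold changes of −0.53, −0.63 and −0.59. For *Chd6* they were *Clcn6* (an endosomal chloride transporter), *Fbxw8* (a ubiquitin ligase subunit) and *Pcdhga12* (a clustered protocadherin), each at r = 0.999, with log2 fold changes of −0.65, −0.46 and −0.92. The points share the group difference, and 1222 genes for *Chd5* and 1264 for *Chd6* had an r over 0.9, so these values are given as a description.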

How the data were processed

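Poly(A) RNA of 6 cultures was sequenced after TruSeq Stranded mRNA library preparation. The authors aligned the reads with STAR 2.7.0d, counted those on exons with featureCounts 1.6.0 and deposited the raw counts of each gene, which were not normalized. The counts carry GENCODE vM28 and GRCm39 coordinates, whereas the methods name mm10 and GENCODE M18. Neither a strand nor a pair option stands in the recorded command, and reads of several places or several genes were left out, so that overlapped genes are under- or overestimated. Symbols came from GENCODE vM21 through the identifiers (52081 of 55357 matched; the rest held 0.286% to 0.387% of reads).

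Genes reaching 6 reads in 1 library or more were tested with edgeR 4.0.16 in R 4.3.3 (TMM, glmQLFit, glmQLFTest, Benjamini-Hochberg, threshold 0.01), after a check on simulated counts. The alternatives were limma 3.58.1 after voom (the test of the study's methods), DESeq2 1.42.0, other scalings, filters and thresholds, the robust fit, a replicate block and leaving out each library. Nothing in the labels says that libraries came from separate preparations, so p-values measure the spread between libraries, which may be technical. A chi-square statistic per gene was 4.49 to 10.3 within groups and 12.7 to 24.3 between them, and no pair of libraries agreed within sampling noise.

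Titles number the cultures of either group 1 to 3. Deviations from the group means (10908 genes) correlated at 0.392, 0.189 and 0.461 between libraries of one number and at −0.393 to 0.108 otherwise, so the numbers were taken to pair the libraries. The main fit had no replicate term, and the block was an alternative. Its adjusted p is printed where it changes the call of a gene named, and its counts are printed for some of the lists.

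The members and the 12 gene lists were chosen with earlier results of these data known. The genes named were the 9 *Chd* genes, *Pla2g4e*, the 2 genes of each list with the smallest p, and the 3 genes most like each of the 2 *Chd* genes with the smallest p. *Cldn5*, *S100b*, *Elavl3*, *Snap25* and *Map2* were named after their values were seen. A gene that this rule picks among the markers is not reported here. No protein sequences were used here.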

Additional observations from a re-analysis of the deposited data

How the results depend on the processing

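The number of *Chd* genes called lower was 1 under limma after voom, DESeq2, each other scaling, each other filter and the robust fit, and it was 2 with the replicate block and at an adjusted p of 0.05, where *Chd6* joined *Chd5*. Leaving out a library gave between 0 and 1, with 0 where either shCtrl replicate 2 or sh*Pla2g4e* replicate 2 was omitted. No alternative called a member higher. The log2 fold change of *Chd7* ranged from −0.0642 to 0.1121 over the leave-one-out fits. It was negative without sh*Pla2g4e* replicate 2 (−0.0642) and without shCtrl replicate 1 (−0.0445), and each other member kept its sign throughout. Over all genes, 1419 were called, against 2349 without a filter, 3395 with the replicate block, 2813 at an adjusted p of 0.05 and 695 to 1613 in the leave-one-out fits (695 without shCtrl replicate 2, 854 without sh*Pla2g4e* replicate 1, 928 without shCtrl replicate 1, 931 without sh*Pla2g4e* replicate 2). In the partner and remodeller lists, 3 genes were called, against 8 with DESeq2, 5 with upper-quartile scaling, 7 without a filter, 6 with the robust fit, 11 with the replicate block, 10 at an adjusted p of 0.05 and 2 to 7 in the leave-one-out fits (7 without sh*Pla2g4e* replicate 3, and 2 without shCtrl replicate 1, sh*Pla2g4e* replicate 1 or sh*Pla2g4e* replicate 2). The cause of these moves was not tested. Scaling by library size alone moved the median over all genes from 0.03 to 0.10 and the share of calls that were lower from 61.7% to 43.4%, and 4 members stayed lower and 5 higher under each scaling. With 3 libraries a group, the standard errors of the members were 0.0746 to 0.109 on the log2 scale. The log2 fold changes of −0.25 (*Chd6*) and −0.21 (*Chd8*) did not pass the threshold of 0.01 without the replicate block. In edgeR with the block, *Chd6* passed (adjusted p = 0.00323) and *Chd8* did not (adjusted p = 0.0143).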
